A study of Mus musculus with 8 samples.

Results

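Nodal and BMP signalling genes were followed through removal and re-expression of CTCF in mouse embryonic stem cells, with nascent RNA as the readout. The set comprised Nodal, Lefty1, Lefty2, Tdgf1, Smad7, Bmp4, Id1, Id2 and Id3, and members were the rows of the deposited table with one of these gene names. Of the 9 names, 8 matched one row each among 16940 genes, and Id1 was not analysed here. All 8 had a mean of at least 10 normalized reads and were among the 15818 genes tested.

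Nascent RNA was measured by transient transcriptome sequencing (TT-seq), in which a 15 min pulse of 400 µM 4-thiouridine marks newly made RNA for capture. All cells were of the E14 line and carried CTCF with an auxin-inducible degron (AID), which lets the auxin IAA trigger breakdown of the tagged protein. CTCF binds DNA and holds the ends of chromatin loops. A control overexpression line gave 2 groups, untreated and given IAA for 12 h, and lines overexpressing wild-type CTCF or a mutated CTCF gave the other 2, both given IAA for 12 h. The 2 CTCF lines had no untreated group, so line and IAA cannot be told apart where they are compared with the untreated control. In comparisons between lines, the line and the CTCF form it carries cannot be told apart. The mutation is not named in the labels, nor is it stated whether a line is 1 clone. Each of the 4 groups had 2 libraries, and nothing in the labels says that replicates came from separate cultures, so p-values measure the spread between these libraries, which may be technical. All groups grew without serum in leukemia inhibitory factor, the MEK inhibitor PD0325901 (1 µM) and the GSK3 inhibitor CHIR99021 (3 µM), and the listed medium names no added BMP or activin.

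Nodal is a secreted ligand of the TGF-beta family. It binds activin receptors with the help of the co-receptor encoded by Tdgf1 (Cripto), and the signal reaches the genome through SMAD2 and SMAD3 with SMAD4 and FOXH1. Lefty1 and Lefty2 encode secreted inhibitors that are themselves induced by Nodal, and Smad7 encodes an inhibitory SMAD that blocks the receptors. BMP4 signals through SMAD1, SMAD5 and SMAD9 and induces the Id genes, whose products hold back helix-loop-helix transcription factors. In embryonic stem cells BMP and Id proteins are known for helping to maintain self-renewal, and Nodal for its role as cells leave the naive state.

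Sequences 250 bases upstream of the RefSeq start (GRCm38.p6) were on hand for 5 of the 8 members, namely Nodal, Tdgf1, Bmp4, Id2 and Id3. Entries for Lefty1, Lefty2 and Smad7 were not used here. The sequences of the ligand and of its co-receptor are shown because wild-type and mutated CTCF differed at Nodal while no difference between them passed the test at Tdgf1. The Nodal stretch is chr10:61417722-61417971 on the plus strand and the Tdgf1 stretch is chr9:110946159-110946408 on the minus strand. Capitals mark the SMAD half-site CAGAC or its reverse complement.
Nodal: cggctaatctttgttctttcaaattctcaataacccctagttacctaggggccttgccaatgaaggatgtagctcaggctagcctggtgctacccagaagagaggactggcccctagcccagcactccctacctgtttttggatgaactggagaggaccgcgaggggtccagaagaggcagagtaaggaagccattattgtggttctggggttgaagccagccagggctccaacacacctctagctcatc
Tdgf1: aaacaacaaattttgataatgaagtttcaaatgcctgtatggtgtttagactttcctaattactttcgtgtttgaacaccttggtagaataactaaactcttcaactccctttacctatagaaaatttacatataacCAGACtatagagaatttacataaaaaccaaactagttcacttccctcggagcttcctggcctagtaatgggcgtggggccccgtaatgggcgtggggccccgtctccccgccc

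The 4 motifs below were searched on both strands of these windows. CAGAC was found in Tdgf1, 113 bases before the start, and at 2 places in Id3, and 42.2% of all 32851 promoter windows of the same length hold it. The GC-rich SMAD element GGCGCC was found in Id2 (9.59% of all windows). The FOXH1 element AATNCACA (3.18% of all windows) and the CTCF core motif (0.508% of all windows) were found in 0 of the 5. The matches do not overlap each other. GC content was 42.0% in the Tdgf1 window, 53.2% in that of Nodal and 62.8% to 63.2% in those of Bmp4, Id2 and Id3.

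The libraries held 15671114 to 21561141 recovered reads, and 1 read was worth 0.836 to 1.19 normalized reads. The Ctcf gene was not analysed here, so its depletion was not checked. All 6 stem cell markers (Pou5f1, Nanog, Zfp42, Esrrb, Klf4 and Tfcp2l1) were listed, with summed levels of 46489 to 56446.5 normalized reads. Of the markers of other cell types, 5 of 9 for primitive endoderm, 4 of 7 for trophoblast, 2 of 6 for mesoderm and primitive streak, 2 of 4 for neural cells and 0 of 5 for fibroblasts were listed. Unless another test is named, adjusted p-values are from limma with Benjamini-Hochberg adjustment over the 15818 genes, a call is an adjusted p under 0.05, and log2 fold changes are differences of log2(value + 1). Intervals are 95% intervals of a single gene.

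**Figure D1:**
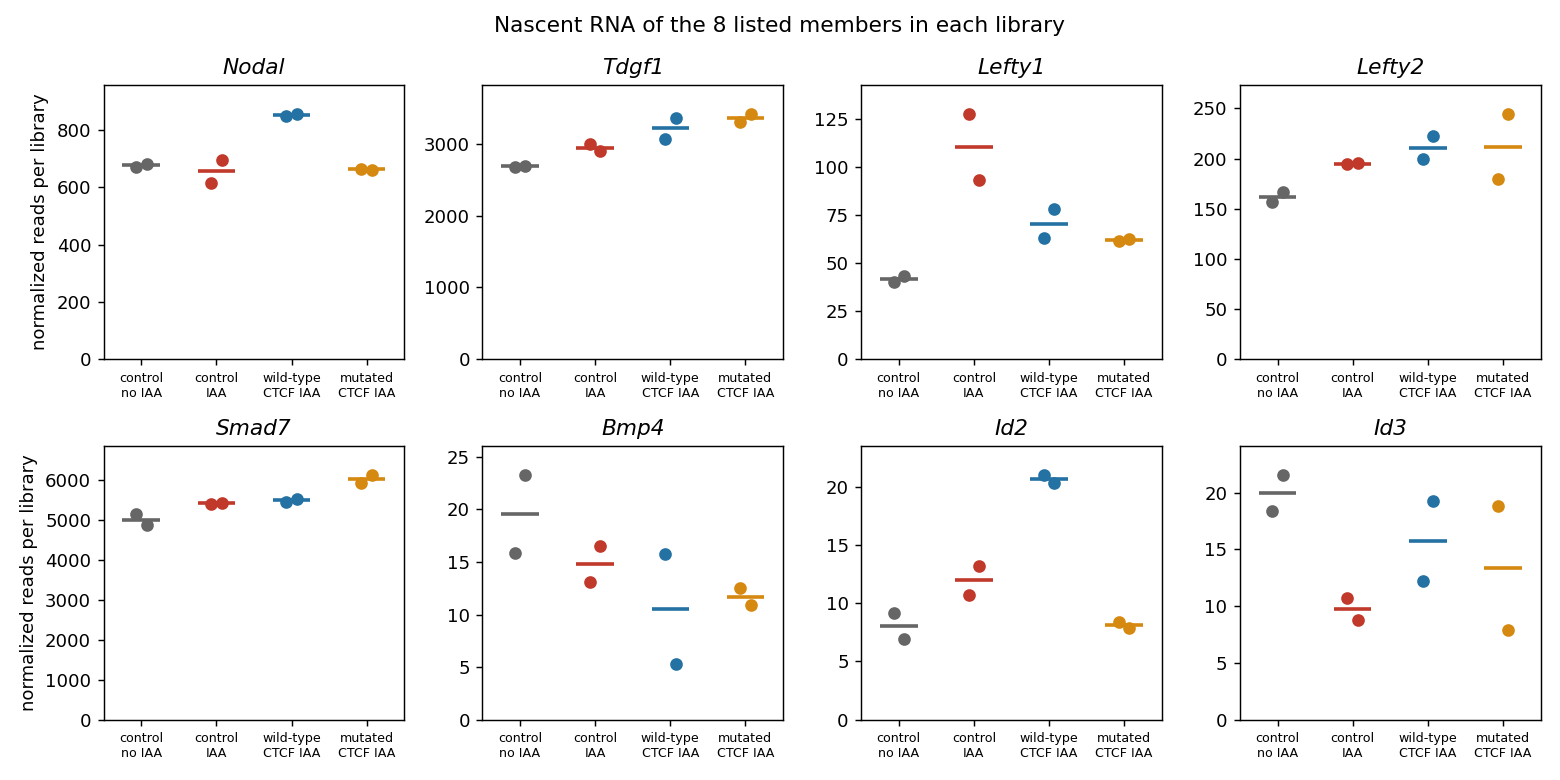
Normalized reads (vertical axes, linear from 0) of each of the 8 listed members in the 4 groups, with 1 point per library and a bar at the mean of the 2 libraries. Nodal and Id2 stand highest with wild-type CTCF, Lefty1 stands highest in the IAA-treated control, and Bmp4, Id2 and Id3 lie under 25 normalized reads in all libraries.

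Levels of different genes were compared per length. Per kb of gene body, averaged within groups, Tdgf1 held 409 to 512 normalized reads, Smad7 176 to 212 and Nodal 89.2 to 116. Lefty2 held 26.98 to 35.3 and Lefty1 12.3 to 32.7 per kb, while Id3 (4.32 to 8.84), Id2 (2.41 to 6.18) and Bmp4 (1.47 to 2.74) were lower still. Per kb of exon, Smad7 (1108 to 1334) and Tdgf1 (1024 to 1280) overlapped, so their order depends on which length applies, and the labels do not state whether introns were counted. None of the 8 overlapped another gene of the table. Bmp4 overlaps the annotated genes Gm15217 and Gm15222 of the opposite strand, and it is not stated whether the counting used strand.

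Of the 8 members, 4 passed the test between control with and without IAA, where 37.7% of all tested genes did. Lefty1, Tdgf1 and Smad7 were higher, as were 19.4% of all genes, and Id3 was lower, as were 18.4%. With library totals made equal 2 of 8 passed, 1 higher and 1 lower, and the members' median was 0.073. Of all tested genes 6668 then passed, 38.5% of them higher, and the median was -0.053. Against the IAA-treated control, 3 of 8 passed with wild-type CTCF (31.6% of all genes), of which 2 were higher (21.5% of all genes) and 1 lower. With mutated CTCF 3 of 8 passed (34.3%), again 2 higher (22.0%) and 1 lower. Between mutated and wild-type CTCF, 3 of 8 passed (34.7%), with Smad7 higher (16.3% of all genes) and Nodal and Id2 lower (18.4%). Against the untreated control, 7 of 8 passed with wild-type CTCF (43.2%), 6 of them higher (27.6%) and Bmp4 lower (15.6%), and 4 of 8 with mutated CTCF (37.8%), all higher (24.0%). After median-of-ratios rescaling 2 of 8 passed with wild-type CTCF over the IAA-treated control, 1 higher and 1 lower. Among all tested genes 4991 passed there before that rescaling, 68.3% of them higher, and 5059 after it, 50.3% of them higher. These comparisons share libraries, so their counts do not add up to separate evidence. The median log2 fold change of the members was 0.12 with IAA, beside -0.0017 over all tested genes, and -0.092 between mutated and wild-type CTCF, beside -0.0087.

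Among the ligands, Nodal (ENSMUSG00000037171.6, chromosome 10, 61417972 to 61425338, GRCm38, plus strand, protein-coding) was higher with wild-type CTCF than in every other group. Its libraries held 672 and 684 normalized reads in the untreated control, 617 and 697 in the IAA-treated control, 849 and 856 with wild-type CTCF and 666 and 661 with mutated CTCF. Both wild-type libraries lay above all 6 others, which ran from 617 to 697. The log2 fold change of wild-type CTCF over the IAA-treated control was 0.38 (SE 0.066, adjusted p = 2.14e-05), and 20.9% of tested genes changed more. Against the untreated control wild-type CTCF was higher by 0.33 (SE 0.066, adjusted p = 8.05e-05).

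Nodal was lower with mutated than with wild-type CTCF, by -0.36 on the log2 scale (SE 0.066, adjusted p = 3.26e-05). With IAA alone the log2 fold change was -0.047 (interval -0.18 to 0.086, adjusted p = 0.613). With mutated CTCF it was 0.016 over the IAA-treated control (interval -0.12 to 0.15, adjusted p = 0.877). The order was thus wild-type CTCF first, with no pair among the other 3 groups past the test. Of the stem cell markers, Pou5f1, Nanog and Zfp42 were higher with wild-type CTCF than in the IAA-treated control (log2 fold changes 0.42, 0.35 and 0.27) and lower with mutated than with wild-type CTCF (-0.19, -0.18 and -0.19, all called). They were also called higher with mutated CTCF than in the IAA-treated control, by 0.23, 0.17 and 0.077, beside a median of 0.055 over all genes. Nodal did not pass there, and whether it differed from these markers was not tested. Esrrb was higher with both forms over that control, Klf4 with the mutated form alone (0.25), Tfcp2l1 with neither, and the list summed to 53431 to 56446.5 normalized reads with wild-type CTCF, 52953 to 55315 with mutated CTCF and 48886 to 50338 in the IAA-treated control. The trophoblast marker list also stood highest with wild-type CTCF, at a summed 902 to 986 normalized reads against 627 to 698 in the other groups. Tfap2c made up most of each sum, with 796 and 879 normalized reads in the wild-type libraries. Of the list's 3 tested genes, Eomes, which is also a known Nodal target, and Tfap2c were higher with wild-type CTCF than in the IAA-treated control (log2 fold changes 0.77 and 0.45), and Krt8 was not called. Cdx2, Elf5 and Hand1 were not analysed here, and the part of these markers' cells in the Nodal result was not tested. In bulk RNA, fewer cells of a type and less RNA per cell cannot be told apart.

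Bmp4 (ENSMUSG00000021835.15, chromosome 14, 46383520 to 46390669, minus strand) lay close to the minimum mean for testing. It held 15.9 and 23.3 normalized reads in the untreated control, 13.1 and 16.5 in the IAA-treated control, 15.7 and 5.35 with wild-type CTCF and 12.5 and 10.9 with mutated CTCF. The lower wild-type library rests on 5 reads and the other on 18. Wild-type CTCF lay below the untreated control by -0.97 on the log2 scale (SE 0.39, adjusted p = 0.0419). Without the library of 5 reads this became -0.27 (adjusted p = 0.673), without the other wild-type library -1.67 (adjusted p = 0.00201) and with a pseudocount of 10 in place of 1 -0.56 (adjusted p = 0.0459), and the call was also lost without either untreated library (adjusted p = 0.0641 and 0.305). No other comparison of Bmp4 passed with all libraries. Without the first wild-type library, which leaves the one of 5 reads, wild-type CTCF was also called lower than the IAA-treated control (-1.31, adjusted p = 0.0244).

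The co-receptor gene Tdgf1 (ENSMUSG00000032494.12, chromosome 9, 110939603 to 110946158, minus strand) was higher in all 3 groups with IAA, which are of 3 lines, than in the untreated control line, by small amounts. It held 2677 and 2690 normalized reads without IAA, 2995 and 2899 with IAA, 3066 and 3365 with wild-type CTCF and 3299 and 3411 with mutated CTCF. All 6 libraries with IAA lay above both untreated ones. Against the untreated control the log2 fold change was 0.26 with wild-type CTCF (SE 0.043, adjusted p = 4.27e-06) and 0.32 with mutated CTCF (SE 0.043, adjusted p = 7.77e-08). Both calls held in all 14 alternatives that gave a value.

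The other differences of Tdgf1 were smaller, and some depended on the setting. The IAA effect of 0.13 (SE 0.043, adjusted p = 0.0112) fell to 0.083 with library totals made equal (adjusted p = 0.0596). It also lost its call without either untreated library or without the first control library with IAA (adjusted p = 0.0515 to 0.127). The difference of 0.12 from the IAA-treated control to wild-type CTCF (adjusted p = 0.0234) became 0.068 after median-of-ratios rescaling (adjusted p = 0.161), 0.057 without the second wild-type library (adjusted p = 0.475), 0.19 without the first (adjusted p = 0.00159) and 0.10 without the second control library with IAA (adjusted p = 0.184). The difference to mutated CTCF was 0.19 (SE 0.043, adjusted p = 0.000607), and it did not pass without the mean-variance trend (adjusted p = 0.082). The 2 CTCF forms differed by 0.063 (interval -0.024 to 0.15, adjusted p = 0.265), which passed without the second wild-type library (0.13, adjusted p = 0.0435). Of the 50-base windows of Tdgf1 transcripts, 8.86% also occur in the pseudogene Tdgf1-ps1, so a small part of its reads could be split between copies.

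Among the inhibitors, Lefty1 (ENSMUSG00000038793.8, chromosome 1, 180935022 to 180938400, plus strand) changed most of the 8 members with IAA. It held 40.1 and 43.1 normalized reads without IAA, 127 and 93.5 in the IAA-treated control, 62.9 and 78.1 with wild-type CTCF and 61.6 and 62.3 with mutated CTCF. The 2 libraries of the IAA-treated control were the highest of the 8 and the untreated ones the lowest. They rest on 107 and 85 reads and on 48 and 50 reads. The IAA effect was a 2.65-fold rise (1.37 on the log2 scale, SE 0.19, adjusted p = 1.06e-07), and 1.85% of tested genes changed more. The call held in all 14 alternatives, with values of 1.15 to 1.59.

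With re-expressed CTCF, Lefty1 stood between the untreated control and the IAA-treated control. Relative to the IAA-treated control it was lower with wild-type CTCF by -0.63 on the log2 scale (SE 0.19, adjusted p = 0.00816) and with mutated CTCF by -0.81 (SE 0.19, adjusted p = 0.000664). Both values and the IAA effect use the same libraries of the IAA-treated control. Without its first library, which held 127 normalized reads, they became -0.41 (adjusted p = 0.199) and -0.59 (adjusted p = 0.0535), and the wild-type value was -0.48 without the first wild-type library (adjusted p = 0.0987). Relative to the untreated control Lefty1 was higher with wild-type CTCF by 0.74 (SE 0.19, adjusted p = 0.0013) and with mutated CTCF by 0.56 (SE 0.19, adjusted p = 0.0144). The second of these calls was lost without the first untreated library (adjusted p = 0.107) and without the second mutated one (adjusted p = 0.0574). Mutated minus wild-type CTCF was -0.18 (interval -0.55 to 0.20, adjusted p = 0.495). Some markers of other cell types moved with IAA as well. The mesoderm and primitive streak markers listed, T and Gsc, summed to 30.9 to 31.03 normalized reads without IAA and 45.3 to 63.8 in the 3 groups with it, of which T held at most 10.7 in any library and was not tested. Gsc rose in the control line with IAA (log2 fold change 0.90, adjusted p = 0.00171), while T held 4.18 and 5.17 without IAA and 2.38 and 5.50 with it. The neural markers Nes and Pax6 summed to 156 to 159 without IAA and 221 to 284 with it, where Nes rose in the control line (0.48, adjusted p = 0.00039). Pax6 was not tested, and it held 5.02 and 9.48 without IAA and 3.13 and 5.93 with mutated CTCF. The 5 primitive endoderm markers listed summed to 4151 to 4221 without IAA, 4162 to 4391 in the IAA-treated control, 4877 to 5134 with wild-type CTCF and 4856 to 5039.8 with mutated CTCF. Lama1 made up most of each sum, at 3831 to 4872 normalized reads per library. Of the 5 markers, Pdgfra and Gata4 rose in the control line with IAA (log2 fold changes 1.78 and 0.64), Gata6 fell (-0.59), and Dab2 and Lama1 did not pass. Over the IAA-treated control Gata4 was lower with wild-type CTCF (-0.52, adjusted p = 0.00414) and did not pass with mutated CTCF (-0.25), and Lama1 was higher with both forms (0.26 and 0.24). Their part in the Lefty1 result was not tested. The mesoderm markers Mixl1, Mesp1, Tbx6 and Foxa2, the neural markers Sox1 and Neurod1 and the endoderm markers Sox17, Sox7, Amn and Cubn were not analysed here.

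The paralog Lefty2 (ENSMUSG00000066652.5, chromosome 1, 180893108 to 180899103, plus strand) starts 41.9 kb from Lefty1. It held 157 and 166 normalized reads without IAA, 194 and 196 in the IAA-treated control, 199 and 223 with wild-type CTCF and 179.7 and 244 with mutated CTCF. All 6 libraries with IAA lay above both untreated ones, and the 2 mutated libraries were the lowest and the highest of those 6. The IAA effect of 0.27 (SE 0.12) did not pass (adjusted p = 0.0769). It passed at the same value when only these 2 groups were fitted (adjusted p = 0.0438).

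Against the untreated control Lefty2 was higher with wild-type CTCF by 0.38 (SE 0.12, adjusted p = 0.0102) and with mutated CTCF by 0.37 (SE 0.12, adjusted p = 0.0132). The wild-type call was lost without the first untreated library (adjusted p = 0.108) or the second wild-type one (adjusted p = 0.0865). The mutated call was lost without either untreated library (adjusted p = 0.132 and 0.0536), and it was 0.15 without the second mutated library (adjusted p = 0.458) and 0.59 without the first (adjusted p = 0.000485). Whether Lefty1 and Lefty2 changed differently was not tested. Of the 50-base windows of Lefty1 transcripts, 306 of 1707 (17.9%) also occur in Lefty2, and 12.0% of those of Lefty2 occur elsewhere, so reads from these stretches could be assigned to either gene.

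Smad7 (ENSMUSG00000025880.11, chromosome 18, 75367529 to 75395935, plus strand) had the most reads of the 8 members and small differences. It held 5140 and 4882 normalized reads without IAA, 5405 and 5434 in the IAA-treated control, 5463 and 5523 with wild-type CTCF and 5939 and 6127 with mutated CTCF. The 2 mutated libraries lay above all others and the 2 untreated ones below. Mutated CTCF was higher than wild-type CTCF by 0.14 on the log2 scale (SE 0.035, adjusted p = 0.00258), a call lost without the second mutated library (0.11, adjusted p = 0.0605). It was higher than the IAA-treated control by 0.15 (SE 0.035, adjusted p = 0.000611) and than the untreated control by 0.27 (SE 0.035, adjusted p = 6.44e-08). The call over the IAA-treated control was lost without the mean-variance trend (adjusted p = 0.0758).

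The IAA effect on Smad7 was 0.11 (SE 0.035, adjusted p = 0.00955). It fell to 0.062 with library totals made equal (adjusted p = 0.113), to 0.077 without the second untreated library (adjusted p = 0.138) and lost its call without the second control library with IAA (adjusted p = 0.0652). Wild-type CTCF differed from the IAA-treated control by 0.019 (interval -0.052 to 0.091, adjusted p = 0.716). It lay 0.13 above the untreated control (SE 0.035, adjusted p = 0.00219), which was 0.051 with equal totals (adjusted p = 0.191), 0.079 when rescaled by median of ratios (adjusted p = 0.0472) and 0.096 without the second untreated library (adjusted p = 0.0522).

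**Figure D2:**
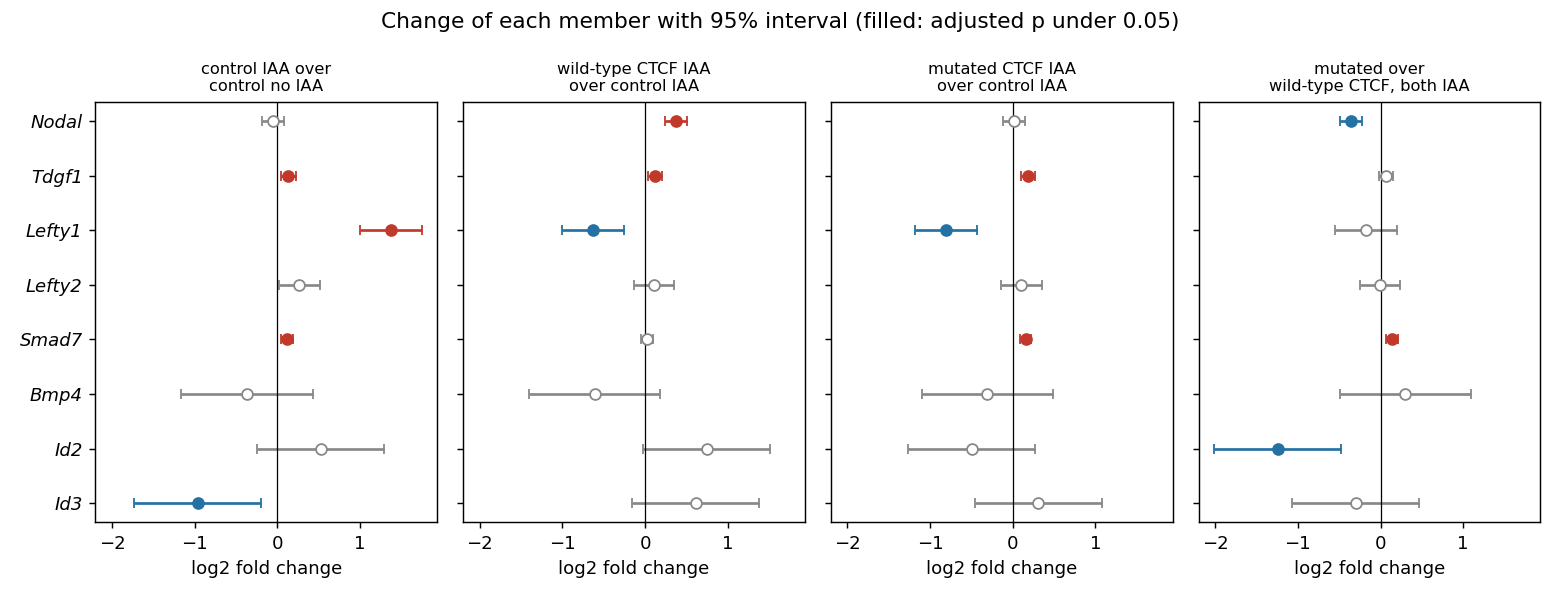
Log2 fold change (horizontal axes) of each member in 4 comparisons, with 95% intervals from the limma fit, filled where the adjusted p is under 0.05. Lefty1 lies at 1.37 with IAA and at -0.63 and -0.81 with wild-type and mutated CTCF, Nodal moves away from 0 with wild-type CTCF (0.38), and the intervals of Bmp4, Id2 and Id3 are the widest.

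The BMP targets of the set were at a low level. Id2 (ENSMUSG00000020644.9, chromosome 12, 25093799 to 25097140, minus strand) held 9.19 and 6.90 normalized reads without IAA, 10.7 and 13.2 in the IAA-treated control, 20.98 and 20.3 with wild-type CTCF and 8.36 and 7.91 with mutated CTCF. Both wild-type libraries lay above all 6 others. The pair held 43 reads in all (exact Poisson 95% interval 31.1 to 57.9, covering counting error only) against 16 with mutated CTCF (9.15 to 25.98).

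Id2 was lower with mutated than with wild-type CTCF by -1.25 on the log2 scale (SE 0.38, adjusted p = 0.00917). Without the first or the second wild-type library the value stayed at -1.22 and -1.27 but no longer passed (adjusted p = 0.0579 and 0.0526). Wild-type CTCF was higher than the untreated control by 1.27 (SE 0.38, adjusted p = 0.00616), and 1.09 without the second untreated library (adjusted p = 0.0648). With a pseudocount of 10 these 2 values were -0.76 (adjusted p = 0.00583) and 0.77 (adjusted p = 0.00403). Over the IAA-treated control the wild-type value was 0.75 (interval -0.020 to 1.51, adjusted p = 0.132), which passed without the mean-variance trend (adjusted p = 0.0303). The IAA effect was 0.52 (interval -0.24 to 1.29, adjusted p = 0.293), and mutated CTCF differed from the untreated control by 0.025 (interval -0.74 to 0.79).

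Id3 (ENSMUSG00000007872.3, chromosome 4, 136143497 to 136145755, plus strand) was lower in the IAA-treated control than without it. It held 18.4 and 21.6 normalized reads without IAA, 10.7 and 8.80 in the IAA-treated control, 12.2 and 19.3 with wild-type CTCF and 18.8 and 7.91 with mutated CTCF. The 2 groups of the control line did not overlap, while the libraries of each CTCF form lay far apart. Reads summed to 47 (exact Poisson 95% interval 34.5 to 62.5) without IAA and to 17 (9.90 to 27.2) with it. These are reads before normalization, from libraries of unequal depth. In the control line 1 read was worth 0.836 and 0.862 normalized reads without IAA and 1.19 and 1.10 with it. The intervals are therefore not on the same scale. The log2 fold change with IAA was -0.96 (SE 0.38, adjusted p = 0.0407). The call was lost on leaving out any 1 of the 4 libraries, with values of -1.09 to -0.84 (adjusted p = 0.0717 to 0.215), and with a pseudocount of 10 the value was -0.60 (adjusted p = 0.0343). None of the other 5 comparisons of Id3 passed (adjusted p = 0.178 to 0.572), except that mutated CTCF lay below the untreated control without the first mutated library (-1.23, adjusted p = 0.0272).

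The rest of the pathway was read from lists chosen with earlier results of these data known. For the Nodal, activin and TGF-beta branch, the lists held 32 genes and 26 were tested. Their SEs ran from 0.033 (Trim33) to 0.27 (Tgfb1), most of them under the median SE of 0.10 over all tested genes. Smaller changes can pass at a smaller SE, and the shares of calls were not matched for it. With IAA 16 of the 26 passed (7 higher, 9 lower), where 37.7% of all genes did, and their median log2 fold change was -0.026 beside -0.0017 over all genes. By role, 2 ligands rose (Gdf3 and Tgfb2) and 2 fell (Inhbb and Tgfb1). Among receptors Tgfbr3 rose and Acvr1b and Acvr2b fell, and of the intracellular genes Foxh1 rose while Smad2, Smad3 and Smad4 did not pass. Of 2 convertases that cut the Nodal precursor, Pcsk6 rose and Furin did not pass. Among 10 inhibitors 2 rose (Ski and Trim33) and 5 fell (Skil, Tgif1, Tgif2, Pmepa1 and Fst). With library totals made equal the split was 6 higher and 12 lower, while 38.5% of calls among all genes were higher.

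The largest change of that branch was at Tgfbr3, which encodes the co-receptor betaglycan. It held 583 normalized reads in each untreated library, 3012 and 3088 in the IAA-treated control, 2541 and 2596 with wild-type CTCF and 1594 and 1547 with mutated CTCF. The 4 groups did not overlap. Its log2 fold change with IAA was 2.39 (SE 0.048, adjusted p = 5.46e-33), and mutated CTCF lay below wild-type CTCF by -0.71 (SE 0.048, adjusted p = 2.49e-15). Foxh1, the DNA-binding partner of the Nodal SMADs, held 39.3 and 41.4 without IAA, 61.9 and 82.5 with IAA, 97.9 and 111 with wild-type CTCF and 61.6 and 83.04 with mutated CTCF. Like Nodal it was highest in both wild-type libraries. It rose by 0.81 with IAA (SE 0.19, adjusted p = 0.000579) and was lower with mutated than with wild-type CTCF by -0.54 (SE 0.19, adjusted p = 0.0226).

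Inhbb, which encodes a subunit of activin and inhibin, fell from 109 and 112 normalized reads to 33.4 and 29.7 with IAA (-1.78 on the log2 scale, SE 0.21, adjusted p = 4.47e-09). It held 46.3 and 47.1 with wild-type CTCF and 25.1 and 26.7 with mutated CTCF, a difference of -0.83 between the forms (SE 0.21, adjusted p = 0.00183). Pmepa1, which encodes a membrane protein that restrains SMAD signalling, held 1965 and 2027 with wild-type CTCF and 1261 and 1323 with mutated CTCF (-0.63 on the log2 scale, SE 0.048, adjusted p = 1.02e-13). The untreated libraries lay at 1911 and 1882, near those with wild-type CTCF.

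Between mutated and wild-type CTCF, 13 of the 26 genes of the Nodal branch passed, 10 lower and 3 higher, where 34.7% of all genes passed. The 10 lower were Inhbb, Acvr2a, Acvr2b, Tgfbr1, Tgfbr3, Smad4, Foxh1, Pcsk6, Ski and Pmepa1, and the 3 higher were the inhibitors Tgif1, Fst and Trim33. The branch's median was -0.080 beside -0.0087 over all genes. With median-of-ratios rescaling or equal totals 17 passed, 11 lower and 6 higher. The branch's medians were then -0.075 and -0.081, beside -0.0038 and -0.0098 over all genes. Against the IAA-treated control, 11 of 26 passed with wild-type CTCF (42.3%, beside 31.6% of all genes), 8 higher and 3 lower, and among all genes higher calls also outnumbered lower ones (68.3% of calls were higher). With mutated CTCF 7 of 26 passed (26.9%, below the 34.3% of all genes), 2 higher and 5 lower. After median-of-ratios rescaling these splits were 6 and 5, and 2 and 7, while 50.3% and 50.2% of calls among all genes were higher. Against the untreated control 15 of 26 passed with wild-type CTCF (57.7%, beside 43.2% of all genes), 8 higher and 7 lower. With mutated CTCF 19 of 26 passed over that control (73.1%, beside 37.8% of all genes), 8 higher and 11 lower. None of these shares was matched for the SE.

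For the BMP branch, the lists held 38 genes and 19 were tested. With IAA 8 of 19 passed (42.1%, near the 37.7% of all genes), 3 higher and 5 lower. Between mutated and wild-type CTCF 9 of 19 passed (47.4%, beside 34.7% of all genes), 6 higher and 3 lower. The median between the forms was 0.12 beside -0.0087 over all genes. The 4 BMP receptors all passed between the forms: Bmpr1a, Bmpr2 and Acvr1 were higher with mutated CTCF, and Bmpr1b, at a mean under 40 normalized reads in each group, was lower. Among the SMADs of this branch Smad5 was lower, while Smad1 and Smad9 did not pass. Of 5 tested inhibitors Bambi, Twsg1 and Fstl1 were higher with mutated CTCF. For wild-type CTCF over the IAA-treated control, 8 of 19 passed (3 higher, 5 lower), where 31.6% of all genes did. This became 12 of 19 (3 higher, 9 lower) after median-of-ratios rescaling. Among all tested genes 4991 passed before that rescaling, 68.3% of them higher, and 5059 after it, 50.3% of them higher.

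Id4, a further member of the Id family, held more normalized reads than Id2 and Id3, not compared per length. It held 194 and 193 normalized reads without IAA, 139 and 133 in the IAA-treated control, 212 and 264 with wild-type CTCF and 253 and 228 with mutated CTCF. It fell by 0.50 on the log2 scale with IAA (SE 0.11, adjusted p = 0.000494) and differed between the CTCF forms by 0.023 (adjusted p = 0.899). Msx2, a BMP-induced homeobox gene, moved the other way with IAA, from 40.96 and 32.8 to 70.3 and 72.6 (0.94 on the log2 scale, SE 0.21, adjusted p = 0.00033). The ligand gene Bmp6 held 55.1 and 53.5 with wild-type CTCF and 21.9 and 41.5 with mutated CTCF (-0.82 on the log2 scale, SE 0.23, adjusted p = 0.00432), with the 2 mutated libraries far apart.

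**Figure D3:**
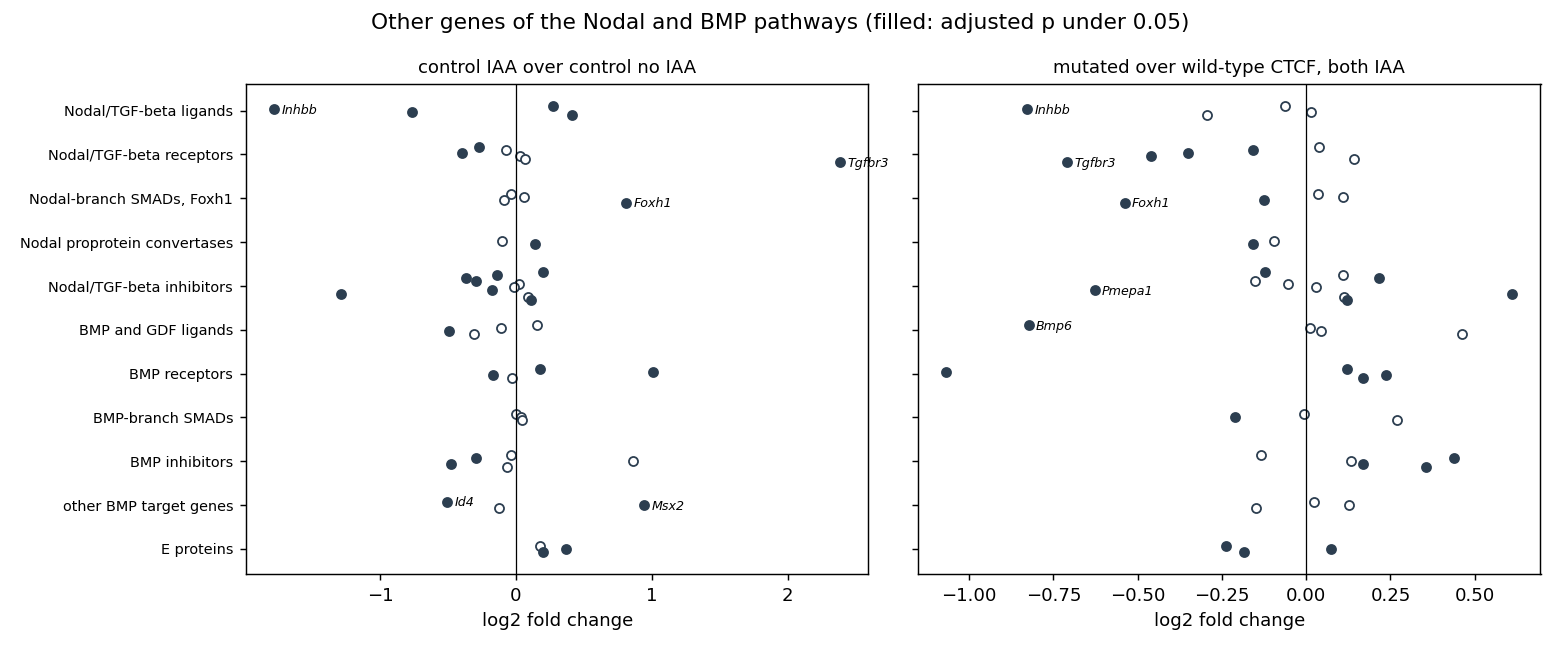
Log2 fold change (horizontal axes) of the other tested pathway genes by role, with IAA in the control line (left) and between mutated and wild-type CTCF (right); filled points have an adjusted p under 0.05 and named ones also an absolute value of at least 0.5 and a mean of at least 50. Tgfbr3 is the farthest point with IAA (2.39), and 10 of the 13 filled points of the Nodal branch on the right lie below 0.

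Neighbouring genes were compared next, since CTCF is known for separating neighbouring domains. Around Lefty1, 11 genes that start within 250 kb were analysed here and 9 were tested. With IAA 2 of them passed, both lower (Ephx1 and Cnih4), a smaller share than the 37.7% of all genes. Over the IAA-treated control, 1 passed with wild-type CTCF (31.6% of all genes) and 4 with mutated CTCF (34.3%), all higher. Between the forms 4 of the 9 passed (34.7% of all genes), 3 higher and 1 lower. Tmem63a, a membrane protein gene that starts 7.32 kb away, had a log2 fold change of -0.10 with IAA (adjusted p = 0.62). Ephx1, a detoxifying epoxide hydrolase gene that starts 85.9 kb away, stood at 382 ± 8.5 normalized reads (SD, n = 2) without IAA, 281 ± 19.8 with IAA and 433 ± 9.9 with wild-type CTCF. Its values were -0.44 with IAA and 0.62 with wild-type CTCF, opposite in sign to those of Lefty1 in the same comparisons.

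**Figure D4:**
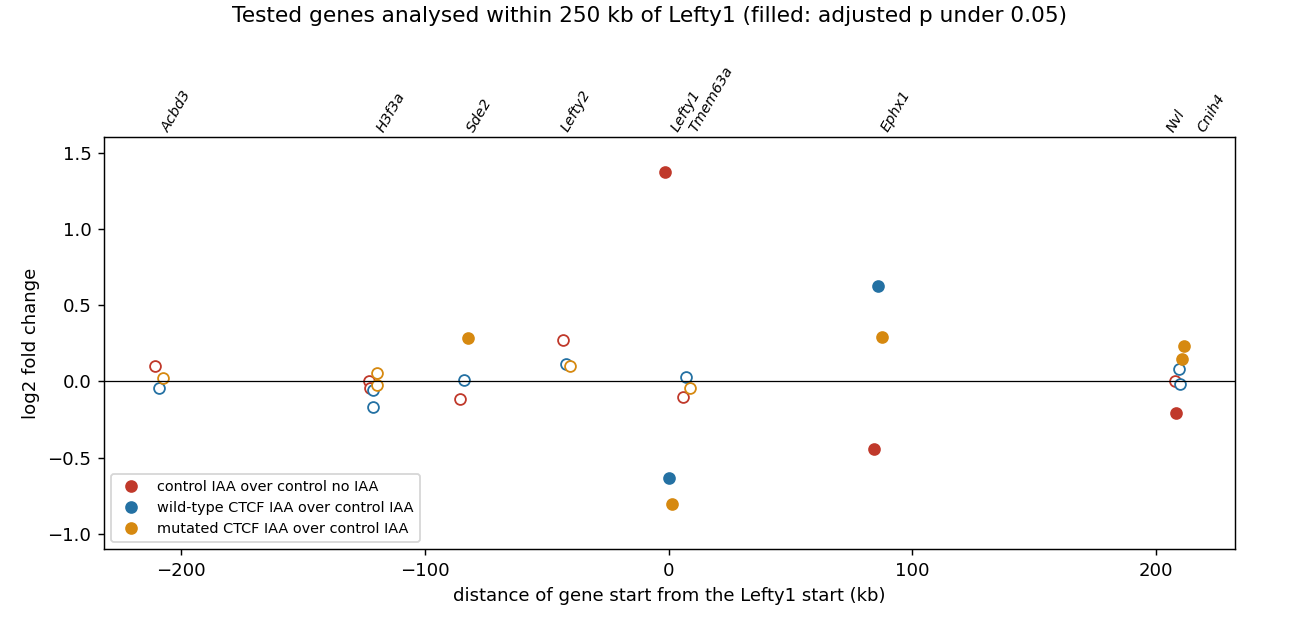
Log2 fold change (vertical axis) of the tested genes analysed here that start within 250 kb of Lefty1, by distance of their start from that of Lefty1 in kb, in 3 comparisons that share the IAA-treated control; filled points have an adjusted p under 0.05. The antisense gene H3f3aos lies at the position of H3f3a and is not labelled. Lefty1 rises by 1.37 with IAA, and Tmem63a, which starts 7.32 kb away, lies near 0.

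Around Nodal, 5 genes within 250 kb were tested, and 0 of them passed between mutated and wild-type CTCF, where 34.7% of all genes did. With IAA 2 of the 5 passed, both lower (37.7% of all genes). Over the IAA-treated control 2 passed with wild-type (31.6% of all genes) and 2 with mutated CTCF (34.3%), all higher. Pald1, the nearest by start, was higher with mutated CTCF than in the IAA-treated control (0.23, adjusted p = 0.00038) and did not pass with wild-type CTCF (0.11, adjusted p = 0.078). Eif4ebp2, a translation regulator gene 34.7 kb away, was higher with both CTCF forms than in the IAA-treated control (log2 fold changes 0.32 and 0.35, SE 0.055 each). Adamts14 was higher with wild-type CTCF (0.36, adjusted p = 0.017), and its difference between the forms did not pass (-0.26, adjusted p = 0.082). The single listed gene analysed within 250 kb of Id2, Kidins220, was higher with wild-type CTCF than in the IAA-treated control (0.18, adjusted p = 0.011) and lower with mutated than with wild-type CTCF (-0.23, SE 0.053, adjusted p = 0.00068). The next listed gene on the other side of Id2, Rnf144a, starts 1318 kb away.

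Around Id3, 2 of 12 tested genes passed with IAA, a smaller share than the 37.7% of all genes, and both were lower. One was Fuca1 and the other E2f2, a cell cycle transcription factor gene 28.9 kb away, which fell from 299 ± 8.5 to 169 ± 28.5 normalized reads (SD, n = 2; log2 fold change -0.83, SE 0.11). E2f2 was higher with wild-type (0.56) and mutated CTCF (0.50) than in the IAA-treated control. Over that control, 6 of the 12 passed with wild-type CTCF (31.6% of all genes) and 4 with mutated CTCF (34.3%), all higher. Next to Tdgf1, Lrrc2 at 5.39 kb rose with IAA by 0.39 (SE 0.061). It was 1 of 2 genes to pass with IAA among the 4 tested around Tdgf1, both higher, with Lrrfip2 (0.24, SE 0.041) the other. None of the 3 genes within 250 kb of Smad7 passed in any comparison, where 31.6% to 43.2% of all genes did. These 3 were at a low level, with group means of 13.5 to 46.2 normalized reads and SEs of 0.22 to 0.33. Beyond them Ctif, at 330.0 kb, rose with IAA by 0.65 (SE 0.046). No listed gene starts within 250 kb of Bmp4.

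The genes whose pattern was most like that of a member were found by Pearson's r of log2 values over the 8 libraries, among 3102 genes with a mean of at least 50 and group means spanning at least 0.5. Only Lefty1, Id2, Id3 and Bmp4 spanned that much themselves. Nearest to Lefty1 were Gm2379 (r = 0.99) and Ccdc136 (r = 0.98), and nearest to Id2 were Vgll3 (r = 0.99) and Adap1 (r = 0.98). Ccdc136 stood at 463 ± 29 normalized reads without IAA, 839 ± 35 with IAA, 661 ± 40.2 with the wild-type form and 629 ± 13 with the mutated form (SD, n = 2). Adap1 stood at 1127 ± 33, 1472 ± 82, 1904 ± 6.2 and 1105 ± 0.63 in the same order. For Id3 the nearest were Otx2os1 (r = 0.91) and Jade2 (r = 0.86), and for Bmp4 4930433N12Rik (r = 0.85) and Gm29361 (r = 0.84). These r values describe the highest of many over 4 groups in pairs and carry no test.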

How the data were processed

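The deposited table holds normalized read counts made by the authors (a signal per gene), with a column per library. Trim Galore, STAR, featureCounts, DESeq2 and mm10 are named in the submitters' processing notes, without versions; whether introns or strand were used is not given in the sources used here. All values (100%, within 0.01 reads) were whole multiples of 1 step per library, taken as 1 read. The table had 0 columns of other samples.

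Values were fitted as log2(value + 1) with limma 3.58.1 (R 4.3.3), 1 coefficient per group over all 8 libraries (4 residual degrees of freedom), with a mean-variance trend, on genes with a mean of at least 10. Benjamini-Hochberg adjustment covered all 15818 genes within each of 6 comparisons. The fit was tested on simulated data. Positions are from GENCODE M21 (GRCm38), where 16917 gene IDs were found. Members and lists were chosen with earlier results of these data known. Named genes were all members, list genes past the threshold that moved by at least 0.5 on the log2 scale and had a mean of at least 50, nearest neighbours and the 2 most similar genes. Genes named beside a count of calls, marker genes and neighbours farther off were chosen after their values were seen. Same-numbered replicates did not deviate together (mean correlation 0.0037 over 6 pairs of groups, range -0.022 to 0.028), so no pairing was used. In each group the median-of-ratios factor was higher in replicate 2 (0.991 to 1.039) than in replicate 1 (0.971 to 1.002). A replicate block was run as an alternative. Ctcf is not reported here.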

Additional observations from a re-analysis of the deposited data

Results flagged for a closer look

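The change from the IAA-treated control differed between the CTCF forms at 3 members, as tested between the mutated and the wild-type form in the same fit. Nodal was lower with mutated CTCF (log2 fold change -0.36, adjusted p = 3.26e-05), Id2 was lower (-1.25, adjusted p = 0.00917) and Smad7 was higher (0.14, adjusted p = 0.00258). These 3 genes were picked by that same test. Over all 8 members, both libraries of one form lay beyond both of the other at 4, beside 65.5% of all tested genes.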

How the results depend on the processing

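Over 654 member values under the alternatives, 601 kept their side of the threshold, 47 lost a call, 6 gained one and 0 called values changed sign. Only results called in the main fit could lose a call, so the 47 fall on a part of the 654. The pattern of Nodal between the CTCF forms (-0.37 to -0.36) and the IAA effect on Lefty1 (1.15 to 1.59) held in all 14 that applied. Without the mean-variance trend the number of genes called fell from 5967 to 3946 with IAA, from 4991 to 2379 with wild-type and from 5433 to 3228 with mutated CTCF over the IAA-treated control, from 5489 to 3263 between the forms and from 5975 to 3869 for mutated CTCF over the untreated control. That setting also ended the calls of Tdgf1, Smad7 and Id3 with IAA (adjusted p = 0.159, 0.142 and 0.14), of Lefty1 and Tdgf1 with wild-type CTCF (adjusted p = 0.0622 and 0.205), of Tdgf1 and Smad7 with mutated CTCF (adjusted p = 0.082 and 0.0758), of Smad7 between the forms (adjusted p = 0.104), and, over the untreated control, of Lefty2, Smad7 and Bmp4 with wild-type CTCF (adjusted p = 0.105, 0.0873 and 0.161) and Lefty1 and Lefty2 with mutated CTCF (adjusted p = 0.0633 and 0.123). Leaving out 1 library gave 4284 to 4773 genes with IAA, 3274 to 4622 with wild-type CTCF (3274 without its second library), 3963 to 4426 with mutated CTCF and 3969 to 4875 between the forms. Equal totals moved the share of higher calls with IAA from 51.3% to 38.5%, and median-of-ratios rescaling moved it from 68.3% to 50.3% with wild-type and from 63.9% to 50.2% with mutated CTCF. The replicate block gave 6423 genes with IAA, 5532 with wild-type and 5920 with mutated CTCF and 5981 between the forms, and it changed no call of a member; with median-of-ratios rescaling added, chosen after seeing the data, Lefty2 passed with IAA (adjusted p = 0.0475) and Tdgf1 did not with wild-type CTCF (adjusted p = 0.17). The planned edgeR and DESeq2 fits were not run. For the second mutated library the step (0.989) lies too close to 1 normalized read for whole reads to be accepted. Its values were whole multiples of that step, and its read counts given here assume that 1 step is 1 read. Bmp4, Id2 and Id3 rest on 5 to 27 reads per library, and a minimum mean of 50 leaves them untested.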

Other observations

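The E proteins, helix-loop-helix factors that ID proteins bind and hold back, were all 3 tested. Tcf4 rose with IAA from 12797 and 13486 to 16738 and 17158 normalized reads (0.37 on the log2 scale, SE 0.030, adjusted p = 2.24e-13) and stood at 14761 and 14703.5 with wild-type and 15258 and 15767 with mutated CTCF. Tcf12 rose with IAA by 0.20 (SE 0.031, adjusted p = 1.81e-06) and was lower with mutated than with wild-type CTCF by -0.18 (SE 0.031, adjusted p = 1.04e-05). Tcf3 did not pass with IAA (0.18, adjusted p = 0.068) and was lower with mutated than with wild-type CTCF (-0.24, adjusted p = 0.0141), while Tcf4 was slightly higher (0.074, adjusted p = 0.0472). With IAA 2 of the 3 passed, where 37.7% of all genes did, and between the forms all 3, where 34.7% did. The SEs of the 3 genes (0.030 to 0.076) were under the median of 0.10 over all tested genes, and the shares were not matched for this.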
